A study of Drosophila melanogaster with 2 samples.

Results

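Of the 2174 reproducible NC2alpha binding peaks in the Drosophila melanogaster embryo, 498 (22.9%; exact 95% binomial interval 21.2 to 24.7) were distal intronic peaks. Their summits, the positions of highest signal, lay more than 1000 bp from every annotated transcription start site (TSS), inside a protein-coding gene and in no annotated exon of any gene. They made up 498 of the 743 peaks of the list with a summit that far from any TSS. Of the rest, 27 were exonic and 218, called intergenic here, lay in no exon and no protein-coding gene. Membership was decided by position alone, on genome build dm6 with the gene models of Ensembl release 115. The peaks came from chromatin immunoprecipitation with an anti-GFP antibody and sequencing (ChIP-seq) of whole embryos of both sexes, aged 0 to 24 hours. All embryos came from a transgenic line that stably expresses NC2alpha with eGFP at its C terminus, and 2 biological replicates formed the only group, so no condition was compared. The labels do not say which promoter drives the fusion, every stage and tissue of the embryo is mixed, and a site bound in few cells cannot be told apart from a site bound weakly in many. Each peak carries a signal value given by the authors, relative to a control alignment; no source states that scale, so it serves only to describe and rank peaks, and a ratio of signals is a ratio of these scores, not of amounts bound. An antibody field of the labels names NC2alpha itself, while the description of the experiment names anti-GFP, and the latter is followed here.

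NC2 (negative cofactor 2) is a dimer of NC2alpha and NC2beta, histone-fold proteins that together grip TATA-binding protein (TBP) on DNA. In that position the dimer blocks entry of the general factors TFIIA and TFIIB, and in fly extracts it has also been found to activate promoters with a downstream promoter element. It is therefore known for its action at core promoters, whereas introns of long developmental genes in flies are known to hold many enhancers and alternative promoters.

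The 3 strongest distal intronic peaks are shown with 100 bases on each side of the summit, because they carry the highest values described below. All sequences are the plus strand of the Release 6 reference from RefSeq (dm6), 5′ to 3′. Capitals mark every match, on either strand, to TCAGT (the core of the Initiator, the element around many start sites), GAGAG (the core of the site read by GAGA factor) or TATAAA (the TATA box core).
ush chr2L:480993-481193: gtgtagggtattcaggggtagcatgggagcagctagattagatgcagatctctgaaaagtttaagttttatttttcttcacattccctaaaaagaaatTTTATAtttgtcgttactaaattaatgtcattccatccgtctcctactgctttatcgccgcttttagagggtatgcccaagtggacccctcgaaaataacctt
CG11050 chr2L:6612622-6612822: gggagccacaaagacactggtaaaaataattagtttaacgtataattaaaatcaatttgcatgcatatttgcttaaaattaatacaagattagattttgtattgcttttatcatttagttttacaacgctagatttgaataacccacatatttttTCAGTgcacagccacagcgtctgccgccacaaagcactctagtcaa
cno chr3R:5215427-5215627: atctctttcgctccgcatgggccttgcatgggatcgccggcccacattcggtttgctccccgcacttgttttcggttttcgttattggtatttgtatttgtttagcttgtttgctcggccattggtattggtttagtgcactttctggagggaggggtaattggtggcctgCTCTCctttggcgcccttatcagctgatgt
The ush window held a TATAAA match on the minus strand centred on the summit itself, the CG11050 window a TCAGT match 57 bp to its right, and the cno window a GAGAG match on the minus strand 73 bp to its right.

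A further 4 windows, of 299 bases each, are shown for a pattern described below, short words that read away from the summit on both sides. They are the 4 highest in signal of those members with such matches on both sides that could be printed. Outward matches on both sides, 26 to 146 bp from the summit, were present in only 25 of the 498 members. The counts described below do not require both sides. Capitals mark every match to TCAGTG or CCACTGT; a match on the minus strand appears as CACTGA or ACAGTGG. Both words were chosen after the sequences of the members had been inspected.
NFAT chrX:13640372-13640670: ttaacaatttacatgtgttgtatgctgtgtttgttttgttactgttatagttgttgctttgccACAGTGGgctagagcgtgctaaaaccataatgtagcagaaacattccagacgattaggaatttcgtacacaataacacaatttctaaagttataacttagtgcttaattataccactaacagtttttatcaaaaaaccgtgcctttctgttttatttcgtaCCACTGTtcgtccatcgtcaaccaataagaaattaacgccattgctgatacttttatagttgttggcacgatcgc
for chr2L:3655643-3655941: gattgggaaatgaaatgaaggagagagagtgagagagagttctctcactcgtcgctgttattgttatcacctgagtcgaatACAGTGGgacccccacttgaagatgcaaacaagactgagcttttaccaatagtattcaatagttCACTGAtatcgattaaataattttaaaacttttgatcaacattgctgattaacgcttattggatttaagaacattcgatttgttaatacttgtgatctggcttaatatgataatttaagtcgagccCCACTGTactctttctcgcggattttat
CG32264 chr3L:3785070-3785368: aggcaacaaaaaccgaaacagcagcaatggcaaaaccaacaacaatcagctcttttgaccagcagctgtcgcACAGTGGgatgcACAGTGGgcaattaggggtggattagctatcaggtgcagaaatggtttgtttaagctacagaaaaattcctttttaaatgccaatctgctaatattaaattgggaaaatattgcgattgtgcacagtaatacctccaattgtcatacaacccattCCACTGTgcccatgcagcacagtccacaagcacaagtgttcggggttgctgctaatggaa
CG8034 chrX:19289352-19289650: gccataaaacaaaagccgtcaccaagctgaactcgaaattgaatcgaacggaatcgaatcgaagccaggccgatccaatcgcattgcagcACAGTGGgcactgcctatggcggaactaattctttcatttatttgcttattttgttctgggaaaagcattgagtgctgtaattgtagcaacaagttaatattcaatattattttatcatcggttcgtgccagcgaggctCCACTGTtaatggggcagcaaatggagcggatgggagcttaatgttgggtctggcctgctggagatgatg
In the NFAT window (signal 473) CCACTGT lay 78 bp to the right of the summit on the plus strand and 83 bp to its left on the minus strand, so both copies read outward. The corresponding copies lay 125 bp right and 65 bp left in foraging (for), 93 bp right and 62 and 74 bp left in CG32264, and 83 bp right and 56 bp left in CG8034.

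Over all 498 members, TCAGTG centred 26 to 150 bp from the summit read outward 123 times and inward 30 times, a ratio of 4.10. CCACTGT read outward 76 times and inward 18 times, a ratio of 4.22. In a complete tiling of the sequence in which a distal intronic summit could have lain (153972 windows of 307 bases, each centred on intronic sequence of a coding gene over 1000 bp from any TSS), the same words were balanced about the window centre, with ratios of 1.01 and 1.00. Window centres fall without regard to the words, so ratios near 1 follow from the tiling itself. The wider Initiator core TCAGT read outward 212 times and inward 121 times. These counts take in the matches to TCAGTG (123 and 30), so their excess is not separate from that of the longer word. GAGAG leaned the other way, with 193 outward and 250 inward matches, and TATAAA had 82 and 105. Overlapping GAGAG matches in a repeat count separately. By member the lean was smaller, with an outward GAGAG match in 116 and an inward one in 135. At least 1 outward match to either chosen word was present in 165 members (33.1%), against 6.56% of the tiled windows, and an inward match in 46 members (9.24%).

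The excess of outward matches ended about 150 bp from the summit for TCAGTG and about 175 bp for CCACTGT. The former was highest 76 to 100 bp away, with 34 outward and 3 inward matches, and in the 25 bp beyond 150 bp the counts were 5 and 4. CCACTGT was already one-sided within 25 bp of the summit, with 13 outward and 0 inward matches, and in the 50 bp beyond 200 bp the counts were 1 and 8. Around the 123 outward copies of TCAGTG, the 6 bases before the word were rich in T and C, with T at 74.8%, 78.0% and 75.6% in the first 3 of them and C or T making up most of the rest, and the bases after it were C or T (43.1% and 43.9%) and then A (61.0%). A run of T and C before CAG is also the form of a splice acceptor. Of the 123 copies, 1, in CG11050, had an annotated acceptor directly after its CAG. Few copies could have had one, because summits in exons were excluded and the median distance to the nearest exon was 1942.5 bp. Only 17 members had an exon within 200 bp of the summit. The low count therefore follows largely from the membership rule, and whether copies are unannotated acceptors was not tested.

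**Figure D1:**
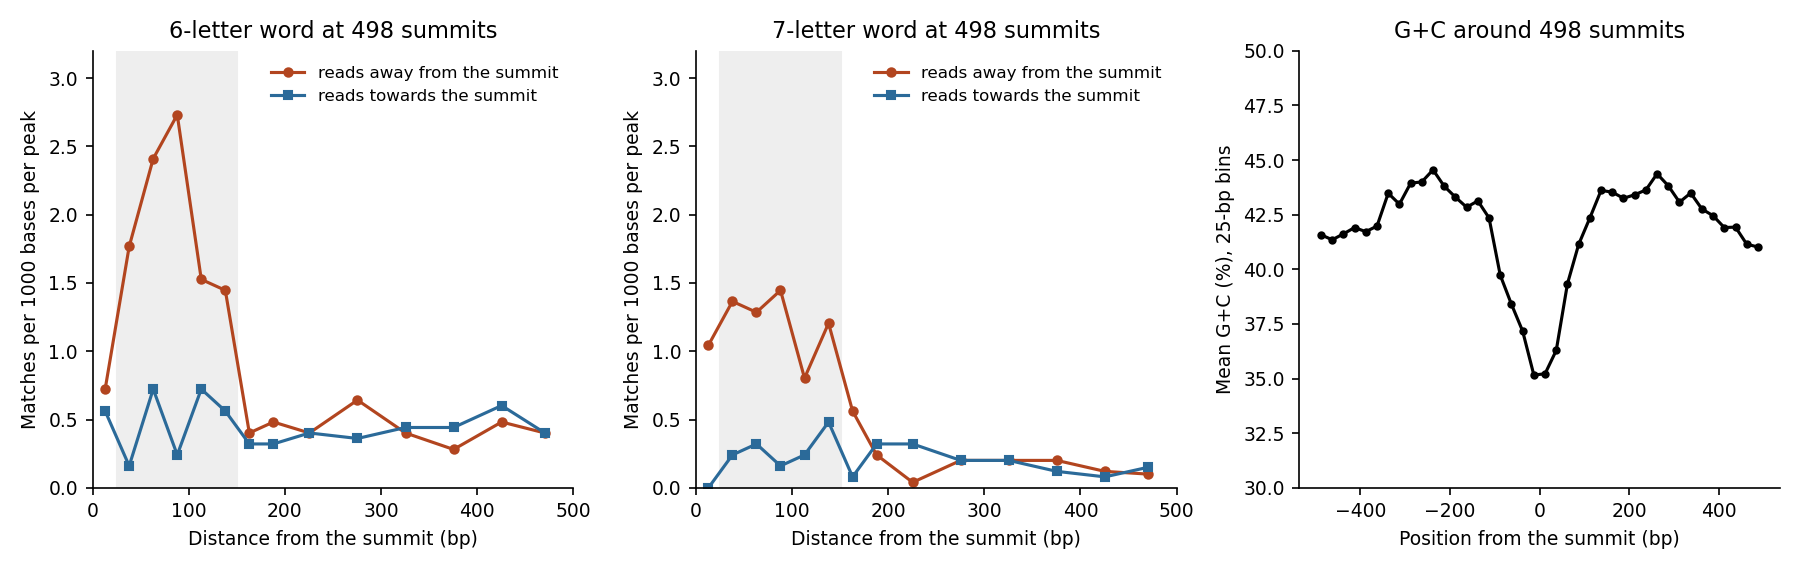
Matches per 1000 bases per peak to a 6-letter word (left, TCAGTG in the text) and a 7-letter word (centre, CCACTGT) by distance from the 498 distal intronic summits, read away from the summit (circles) or towards it (squares), with the counted zone of 26 to 150 bp shaded, and mean G+C in 25-bp bins (right, axis from 30%). Outward matches stand above inward ones out to about 150 bp and the curves meet beyond 200 bp, while G+C falls to 35.2% at the summit from 44.6% at 226 to 250 bp on the left side.

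The words were also counted by the strand of the host gene. In the 475 members with a single host gene, outward TCAGTG lay on the host's strand 53 times and on the other strand 65 times, and outward CCACTGT 39 and 37 times. The wider core TCAGT, read outward, lay on the host's strand 84 times and on the other strand 119 times. The same one-sidedness was present at the 218 distal intergenic peaks (63 outward and 11 inward for TCAGTG, 12 and 4 for CCACTGT). It was also present at the 239 peaks over 500 and up to 1000 bp from a TSS (35 and 10, 38 and 7) and, less so for TCAGTG, at the 1192 peaks within 500 bp of a TSS (133 and 75, 93 and 21). Among the 7505 distal intronic peaks called on pooled replicates that did not reach the reproducible list, the ratios were 1.36 and 1.70. The pattern is therefore not particular to introns. Its share rose with signal: an outward match was present in 46 of the 100 strongest members and in 26 of the 98 weakest, and members with a match had a median signal of 129 against 109 without. With the same number of strongest peaks taken from replicate 1 alone or replicate 2 alone, 75% and 85% of TCAGTG matches read outward, and 81.5% and 83.5% of CCACTGT matches.

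A count of all 16384 words of 7 letters in the same zone gave rank 1 to the run of 7 T by outward minus inward matches (246 against 166), but its outward rate, 494 per 1000 members, was close to the 470 per 1000 tiled windows. CAGTGCA (71 outward and 11 inward), CAGTGTA (66 and 8) and CCACTGT (76 and 18) held ranks 2, 4 and 5, and their outward rates were 143, 132 and 153 per 1000 members against 20.8, 12.7 and 15.6 per 1000 tiled windows. The repeat TGTGTGT held rank 3, with 126 outward and 67 inward matches, and 253 per 1000 members against 130 per 1000 windows. Words that overlap each other count the same site more than once, so these ranks are not independent of each other.

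Of the 16 motifs searched without regard to direction within 100 bases of each summit, both strands, GAGAG was in 158 members (31.7%; interval 27.7 to 36.0), in 28.6% of all 2174 peaks and in 21.4% of 235069 tiled windows of the same length. GAGAGAG, which contains it, was in 5.22% of members and 2.66% of windows. TCAGT was in 191 members (38.4%), against 33.5% of peaks at TSSs, 47.2% of distal intergenic peaks and 28.6% of windows. GATAAG, the core read by GATA factors, was in 63 members (12.7%) against 8.33% of windows, TGANTCA, the AP-1 site, in 34 (6.83%) against 4.35%, and TATAAA in 139 (27.9%) against 23.8%. In all 2174 peaks these shares were 10.8%, 4.60% and 28.8%, and in distal intergenic peaks 8.72%, 6.42% and 24.3%. At TSSs, TATAAA was in 30.4% of peaks.

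Motifs of housekeeping promoters were close to or below the level of the windows. The DNA replication-related element TATCGATA was in 1 member (0.201%), in Rip11, against 5.96% of peaks at TSSs and 0.445% of windows. CATCNCTA (Ohler 7) was in 5 members (1.00%) against 6.38% at TSSs and 1.14% of windows, and GGTCACAC (Ohler 1) in 2 (0.402%) against 3.36% and 0.300%. CGATA, the core read by the boundary factor BEAF-32, was in 20.9% of members and 20.1% of windows but in 35.7% of peaks at TSSs. The E-box CAGCTG was in 6.22% of members, 7.25% of windows and 12.8% of peaks at TSSs. For the remaining motifs, the shares of members and of windows were 6.43% and 5.004% for CACACACA and 1.41% and 0.932% for CAGGTAG (the Zelda site). They were 2.01% and 2.25% for CACGTG, 8.23% and 9.31% for CACATG, and 0.201% and 0.216% for AACCGGTT (the Grainyhead site). For AGGTCA (a core read by nuclear receptors) they were 3.61% and 5.17%. The members' windows had 37.8% ± 5.95 G+C (SD, n = 498), against 40.3% ± 7.81 over the tiled windows, and the part of base composition in the motif shares was not tested. No member's summit lay in an annotated transposable element, which allows a share of up to 0.602%, although such elements make up 7.33% of the eligible sequence. Of the 8003 distal intronic peaks called on pooled replicates, 49 (0.612%) did. How well reads map to eligible sequence was not assessed, and densities below are per base of it regardless.

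The replicates gave the members their individual values. The strongest, in an intron of u-shaped (ush, FBgn0003963, a zinc-finger cofactor of GATA factors; chr2L:480910-481271), had a pooled signal of 1111, with 590 in replicate 1 and 522 in replicate 2, and it was second in the whole list. CG11050 (chr2L:6612541-6612882) followed with 871 (458 and 414), in an intron of only 140 bases. Canoe (cno, a junction protein that binds actin; chr3R:5215391-5215671) had 685 (468 and 216) and Lrch (a leucine-rich repeat protein of the cell cortex) had 626 (417 and 213). Replicates were close in the first pair and replicate 1 stood above replicate 2 in the second, beyond the median ratio of 1.31 that the whole list shows.

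Tlk, the Tousled-like kinase (chrX:3742082-3742376), had 621 (343 and 277), CG32772 559 (282 and 274), Raf, the kinase below Ras (chrX:2297600-2297828), 475 (267 and 210), NFAT 473 (277 in replicate 1, which was 1.38 times replicate 2), CG3726 449 (236 and 213), CG9837 431 (223 and 206) and CG32486 405 (210 and 194). Trithorax-like (Trl, which encodes GAGA factor; chr3L:14759367-14759681) had 402 (191 and 209), the only peak named so far with the higher value in replicate 2. In this set all ratios of replicate 1 to 2 lay between 0.913 and 1.38, nearer to each other than in cno and Lrch.

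Argos (aos, a secreted inhibitor of the epidermal growth factor receptor; its intron is shared with CG33158) had 334 (184.5 and 151.3), Star (S, needed to export that receptor's ligands) had 312 (239 and 71.2), and aop, which encodes the repressor Yan, had 273 (162 and 110). ImpL2, an insulin-binding protein, held peaks of 305 (162 and 131) and 272 (168 in replicate 1, which was 1.66 times replicate 2), and the insulin receptor InR 286 (207 and 76.2). Star and InR were uneven between replicates, with ratios of replicate 1 to 2 of 3.36 and 2.72. The aop peak and the weaker ImpL2 peak lie below the 25 strongest members and were named after their values were seen.

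The remaining hosts of the 25 strongest members were foraging (for, a cGMP-dependent kinase; 330), Grunge (Gug, a corepressor; 313), the histone H3 kinase JIL-1 (307), the repressor zfh1 (300), kirre (an immunoglobulin protein of myoblast fusion; 299), Tre1 (a receptor that guides germ cells; 295), babos (295), the Wnt receptor frizzled (fz; 284) and CG12769 (277). The last of these, with 138 in replicate 1 and 148 in replicate 2, and Trl were the members of the 25 in which replicate 2 was higher. The signal fell quickly below them: 18 members exceeded 300, 69 exceeded 200 and 165 were under 100. The weakest member had 82.1.

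**Figure D2:**
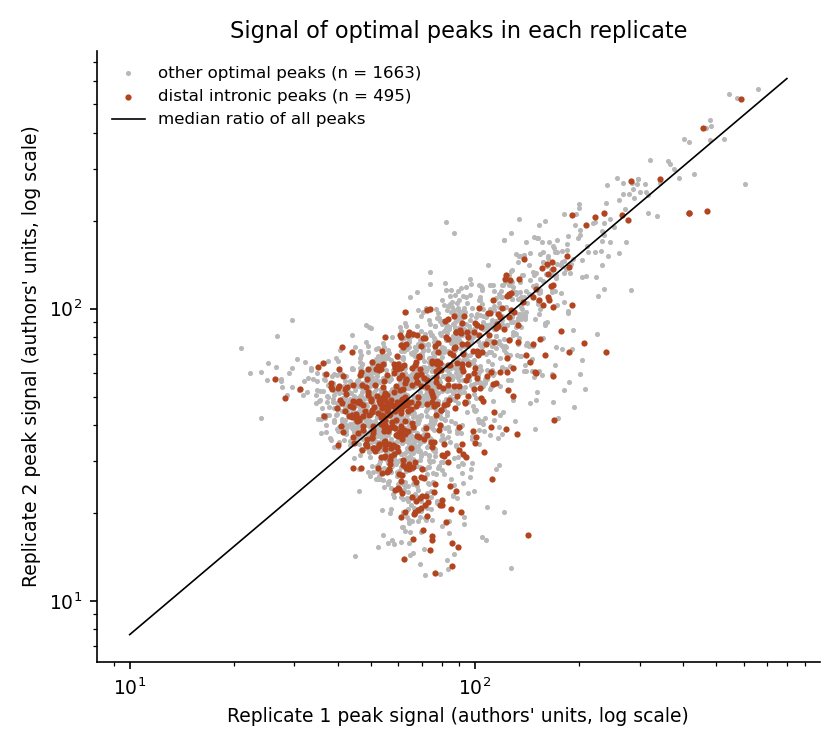
Replicate 1 against replicate 2 signal (authors' units, both axes logarithmic) for the 495 distal intronic peaks with a value in both replicates and for 1663 other peaks of the list; the line is the median ratio of all peaks, 1.31. Of the 100 strongest members, 5 lie over 2-fold from the line. Over all 495 members 66 do, of which 56 are higher in replicate 1.

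As a class, the members were slightly weaker than the list. Their median signal was 113 (quartiles 95.3 and 154), against 118 for the whole list and 120 for peaks at TSSs, so the ratio of the medians to that of the list was 0.961. It was 0.961 in replicate 1 and 0.928 in replicate 2. All these medians are of peaks above a common cut in pooled signal. Among all pooled peaks, without that cut, the medians were 32.5 for distal intronic peaks, 38.9 at TSSs and 33.5 for all. The members held 14 of the 100 strongest peaks and 95 of the 500 strongest, which are smaller shares than their 22.9% of the list. The median values were 67.4 in replicate 1 and 49.4 in replicate 2. After scaling by the ratio of all peaks, 66 of 495 members (13.3%) were over 2-fold apart between replicates, of which 56 were higher in replicate 1, and 193 of 1663 other peaks (11.6%) were. Among the 100 strongest members 5 were. The Spearman rank correlation between the replicate values was 0.449 over the members and 0.557 over the other peaks. Because the list ends at a pooled signal, a member with a low value in one replicate needed a high value in the other.

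The most unequal members after scaling were CG31145 (143 in replicate 1 and 16.8 in replicate 2; chr3R:23657938-23658341), the histone demethylase gene Kdm2 (85.6 and 13.2) and cropped (crp, a helix-loop-helix factor; 76.7 and 12.4). In the other direction they were Jupiter (26.4 and 57.5), schnurri (shn; 35.2 and 63.3) and Tob (41.2 and 74.0). The log2 scaled ratios ran from 2.70 for CG31145 down to -1.50 for Jupiter. Dhc36C and Drgx had no peak in replicate 1 and Oda none in replicate 2; these 3 were named after their values were seen. In 325 members the replicate values ranked among the 2174 strongest peaks of both replicates, and in 10 among those of neither. A replicate value is that of the strongest overlapping peak, and 10 members shared theirs with a neighbour, such as 2 summits 200 bp apart in Lrch (pooled 626 and 132) that both carry 417 and 213.

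All 2174 peaks of the list were the strongest of the 30000 called on pooled replicates, down to a signal of 81.9, so reaching it was a matter of pooled signal. Of 8003 pooled distal intronic peaks 498 reached it (6.22%; interval 5.70 to 6.77), against 7.25% of all pooled peaks. The share was 13.1% for peaks at TSSs, 5.77% for those over 500 and up to 1000 bp away, 5.29% for distal intergenic peaks and 0.585% for distal exonic peaks. Distal intronic peaks were thus 26.7% of the pooled list and 22.9% of the reproducible one.

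Members were densest near start sites even beyond the 1000 bp limit. Their distances to the nearest TSS had a median of 3515 bp (quartiles 1823 and 6538; maximum 36641, in kirre), whereas the median over all eligible bases was 6414 bp. The density fell from 21.1 members per Mb up to 2000 bp (145 members) to 14.55 from there to 3000, 13.25 to 5000, 11.2 to 10000, 4.79 to 20000 and 1.79 beyond (15 members). Their median signal went from 123 in the nearest of these intervals to 104 in the farthest. The share of pooled distal intronic peaks that reached the list was 8.07% in the nearest interval, between 6.42% and 6.61% from 2000 to 10000 bp, and 3.37% and 3.59% in the last 2 intervals. For 366 of the 498 members (73.5%) the nearest TSS belonged to a host gene. No share over all eligible bases is given beside it. An exception was ush, with the TSS of cabut (cbt) 1405 bp from the summit and its own 4873 bp away.

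The limit itself cut through a continuous distribution. The members nearest to it lay in diaphanous (dia; 1005 bp, signal 91.4, replicates 46.3 and 47.5) and arrow (arr; 1016 bp; 89.8, 61.2 and 25.6). Just outside it lay intronic summits in chif and Hyls1 (992 bp; 324, 180 and 146) and in Psa and cue (994 bp; 86.9, 41.3 and 44.6). In all 152 intronic summits lay over 500 and up to 1000 bp from a TSS, with a median signal of 119.

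First introns held more members than their length would give. Of the 498 summits 225 (45.2%; interval 40.8 to 49.7) lay in the first intron of a host's canonical transcript, which makes up 26.2% of eligible sequence, and 212 (42.6%) in a later intron, which makes up 65.5%. A further 61 lay outside the introns of the canonical transcript, in sequence intronic only by another isoform. Since first introns start at a TSS, the densities are also given by distance. Up to 5000 bp they were 21.7 per Mb in first introns and 11.6 in later ones, and beyond 5000 bp 13.4 and 4.44. The median intron with a member was 12037 bp long, and 251 of 437 members in canonical introns were in introns over 10000 bp, the longest of 121519 bp.

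**Figure D3:**
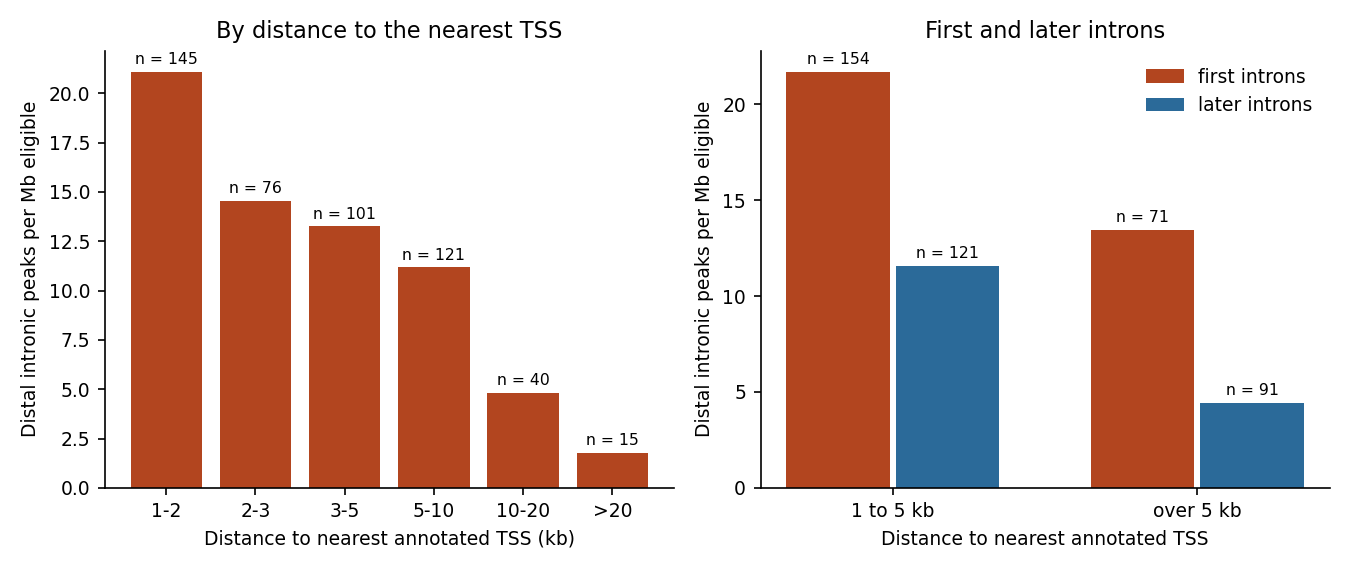
Distal intronic peaks per Mb of eligible sequence by distance to the nearest annotated TSS (left) and in first and later introns of canonical transcripts within and beyond 5 kb of a TSS (right); n is the number of peaks. Density falls from 21.1 to 1.79 per Mb with distance, and first introns stand above later introns in both distance classes.

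The X chromosome held 114 members in 8.74 Mb of eligible sequence, or 13.04 per Mb, above 11.5 on 2L, 10.6 on 2R, 10.02 on 3L and 8.95 on 3R. Members were 31.8% of the peaks on X and 20.2% to 22.4% of those on the other 4 large arms. The difference was in sequence near TSSs: up to 5000 bp X had 21.8 per Mb and the autosomes 15.01, and beyond 5000 bp they had 6.15 and 6.43. Chromosome 4 had no member in 0.508 Mb, which allows up to 5.90 per Mb, and 9 peaks in all. Embryos were of both sexes, and the part of X copy number and of the control in these densities was not tested.

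The 498 summits lay in 366 protein-coding genes, 5.34% of the 6852 genes with any eligible sequence. Hosts were long: their median length was 25148 bp (16012 bp eligible), against 4683 bp (518 bp eligible) for eligible genes without a member. Accordingly 34.0% of the 191 genes with 50000 or more eligible bases were hosts and 0.544% of the 4412 genes with under 2000. Per Mb, the highest value was at 2000 to 5000 eligible bases (21.7), followed by 18.85 at 5000 to 10000 and 14.1 at 10000 to 20000, and the lowest at 50000 and more (5.87). Of the hosts, 270 held 1 member, 59 held 2 and 37 held 3 or more; these 37 together contained 128 of the 498 members. In 23 members the position belonged to more than 1 gene.

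Hosts with the most members, 6 each, were kirre, CG1677 and 2 genes of nuclear receptors in the ecdysone response, Hr4 and Eip75B. In Hr4 (chrX:1941940-2007956) the signals along the gene were 112, 257, 259, 100.7, 189 and 128, spread over 40.5 kb, and in each the replicate 1 value was the higher (from 55.6 to 157 against 37.0 to 127). In Eip75B (chr3L:17950953-18064696) they were, in chromosome order, 145, 124, 85.7, 168, 189 and 155 over 41.4 kb. CG1677 had 90.5 to 205.2 over 45.5 kb, and kirre 85.7 to 299 over 310 kb, its strongest peak lying closest to the gene's 3′ end. Some of these positions are shared: in CG1677 the peak of 102.6 also lies in Atg5 and that of 93.5 in CBP. The strongest peak in CG1677 lay 1017 bp from the TSS of CBP and 50140 bp from its own. In kirre the peak of 107 also lies in CG32795. The density in kirre, 19.0 per Mb, was the lowest of the 4, against 122 in Hr4.

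Raf, ush and schnurri (shn, a zinc-finger protein of the Decapentaplegic pathway) held 5 each. The 5 summits in Raf lay in 6.35 kb of a single intron, from 2.25 to 8.60 kb into the gene, with signals of 475, 182, 246, 136 and 210. Their replicate values were 267 and 210, 118 and 60.5, 127 and 113, 61.8 and 74.2, and 116 and 87.0, so each stood above the members' median in replicate 2, and all but the fourth also did in replicate 1. In ush the first summit, 1111, was followed by 210, 167, 89.2 and 204.6 over 39.7 kb. In shn all were between 93.7 and 150.7.

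Misshapen (msn, a kinase of the JNK pathway), taranis (tara), crp, scribbler (sbb, a corepressor) and Tlk held 4 each. In msn and tara they lay within 5.40 and 5.07 kb, with signals of 82.2 to 153 and 95.5 to 133. In Tlk a peak of 621 stood beside 3 of 100 to 140, and in sbb and crp the range was 110 to 182 and 95.9 to 160. The gap between the strongest peak and the next was widest in ush and Tlk among the 12 hosts of 4 or more, and signals lay within a 2-fold range in msn, tara, crp, sbb and shn.

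**Figure D4:**
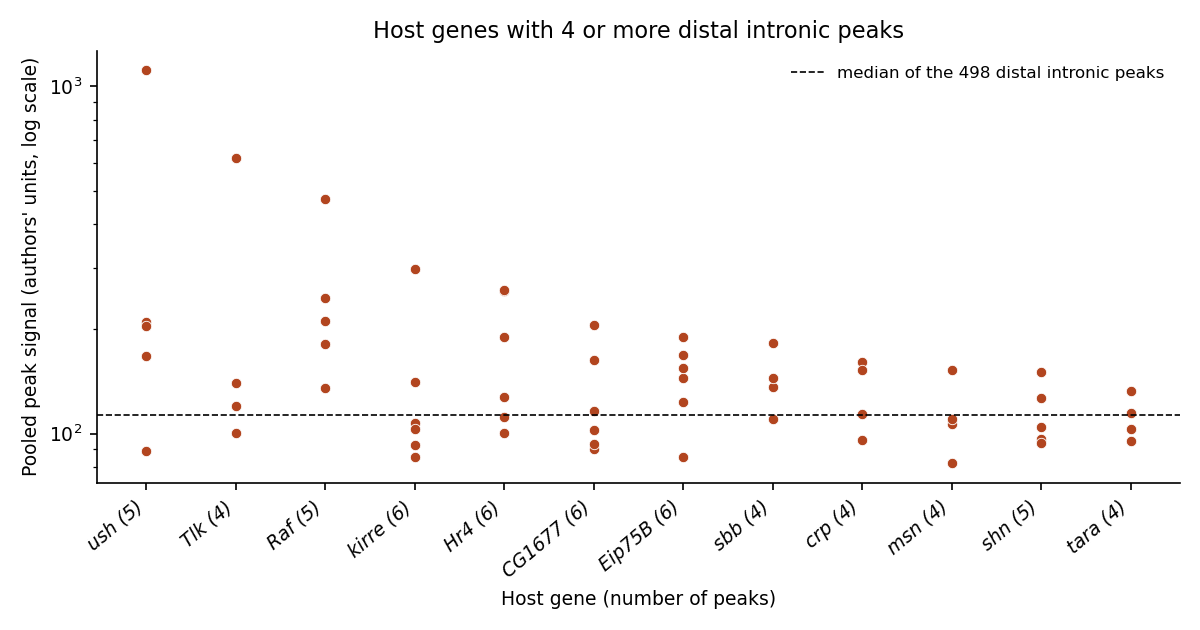
Pooled signal (authors' units, logarithmic axis) of each distal intronic peak in the 12 host genes with 4 or more, ordered by their strongest peak; the dashed line is the median of all 498, 113. In ush the strongest peak (1111) stands apart from the next (210), as in Tlk (621 and 140), while the peaks of tara lie between 95.5 and 133.

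Hosts of 3 members are grouped here by what each gene is known to do, not by the gene lists counted further on. Transcription factors among them were cic (the repressor Capicua), jing, apt, CHES-1-like (a forkhead factor), Mnt (an antagonist of Myc) and Antp (a homeotic protein; its 3 summits, 92.4 to 107, also lie in CG46458). Regulators of chromatin among them were gpp, which encodes the histone H3 lysine 79 methyltransferase, Kdm2 and simj, a subunit of the NuRD complex. Those of signalling were S, Pvf3 (a ligand of the PDGF and VEGF type), cv-2 (a binder of bone morphogenetic proteins) and RapGAP1. The others were Lrch, Dys (dystrophin), Tpr2, Evi5, SKIP, CG32264, CG13917, CG42238, CG46385, and CG45088 with CG6191, which share their 3. In Kdm2 the 3 summits, which lay within 2.78 kb, gave 91.1, 44.0 and 85.6 in replicate 1 and 20.1, 71.2 and 13.2 in replicate 2, so the order of the replicates changed along the gene. In Dys the summits spanned 113 kb, from intron 2 to intron 26 of the canonical transcript.

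Many members stood alone within 1000 bp: 30 had another member's summit within that distance, and joining such neighbours left 482 loci in the same 366 genes. Within 5000 bp 117 had another member. No background over eligible sequence is given for these counts.

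Genes with a member more often also had a peak at their own start. Of the 366 hosts 110 (30.1%; interval 25.4 to 35.0) had a summit of the list within 500 bp of an annotated TSS of their own, against 13.6% of the 6852 eligible genes and 12.7% of the 6486 without a member. Hosts have more start sites, a median of 2 against 1, and counted by TSS position the shares were 16.1% of 875 and 9.81% of 10123. Among the 12 hosts of 4 or more members, a TSS of ush, Eip75B, crp and sbb had such a summit, and none of the TSSs of the other 8 did, such as the 8 TSS positions of Tlk and the 6 of kirre.

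Gene lists by function are described by counts beside all eligible genes, of which 5.34% were hosts, with 10.5 members per Mb. Most lists hold genes with more eligible sequence than the median of 0.626 kb over all eligible genes: the list medians were 30.25 kb for axon guidance and adhesion, 15.8 kb for ion channels and synapses, 13.3 kb for transcription regulators, 8.28 kb for signalling genes, 2.63 kb for RNA-binding proteins and 0.467 kb for chromatin regulators. Over all genes the share of hosts was 15.2% at 10000 to 20000 eligible bases and 21.0% at 20000 to 50000, so shares of lists are to be read beside those of genes of like size. Of 125 eligible transcription regulators 31 were hosts (24.8%), with 60 members and 21.7 per Mb. Their strongest were ush (1111), Trl (402) and zfh1 (300). Besides Hr4 and Eip75B, their nuclear receptors included Hr3 (253, with 2 members, of which this one also lies in CG46321 and CG12912 and the other in CG12912), the ecdysone receptor EcR (189) and ftz-f1 (106, with 2 members).

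Of 88 eligible genes of signalling pathways 23 were hosts (26.1%), with 35 members and 26.9 per Mb, led by Raf (475), aos (334) and InR (286). Wnt signalling was represented by fz (284), the glypican gene dlp (212), nkd (173), arr (89.8), the ligand Wnt6 (87.4) and fz2 (82.4), and Notch signalling by Notch itself (N; 227), mam (179) and neur (130).

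Chromatin regulators had 10 hosts of 58 (17.2%) with 18 members in only 0.224 Mb of eligible sequence, or 80.4 per Mb. These were Trl, the trithorax gene trx (246, with 122 and 126), the remodeller Mi-2 (244, with 125 and 113, a position shared with Su(Tpl)), gpp (186), the Polycomb group genes Psc (145) and ph-p (137), Kdm4B (134), tou (115), Kdm2 (113) and psq (91.0). In trx and Mi-2 the replicates were close to each other.

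Genes of axon guidance and cell adhesion, RNA-binding proteins, and ion channels and synapses had fewer members per Mb than all eligible genes over all distances. Density also varied with gene size. Over all genes it was 10.99 per Mb at 20000 to 50000 eligible bases and 5.87 at 50000 and more. The part of gene size in the densities of these lists was not tested. Axon guidance and adhesion had 15 hosts of 78 (19.2%) and 6.92 members per Mb, led by kirre, Fas3 (166, with 82.0 and 90.9) and the Netrin receptor fra (165, with 86.6 and 69.5). RNA-binding proteins had 8 of 45 (17.8%) and 5.98 per Mb, led by Rbfox1 (217, with 150 and 60.5), pum (176, with 91.2 and 82.6) and larp (166, with 115 and 55.7). Ion channels and synapses had 5 of 71 (7.04%) and 2.49 per Mb, which were Irk1 (185, with 114 and 76.7, shared with CG46310), dnc (106), Shal (97.7), Nmdar1 (91.3, shared with Itpr) and Ih (83.0). Only 3 of the 35 ribosomal protein genes had any eligible sequence, and none was a host.

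The lists were also compared within classes of distance, though not within classes of gene size. Up to 5000 bp from a TSS, where all eligible sequence had 16.3 members per Mb, chromatin regulators had 104, transcription regulators 29.6, signalling genes 29.1, RNA-binding proteins 17.3, axon guidance and adhesion 13.1, and ion channels and synapses 6.88. Beyond 5000 bp, where all had 6.38, signalling genes had 25.1, transcription regulators 16.4 and chromatin regulators 45.0 (4 members in 0.0890 Mb), while axon guidance and adhesion had 4.58, RNA-binding proteins 0.958 and ion channels and synapses 0.700, the last 2 with a single member each. The exact intervals of the host shares of these lists overlap one another, except that the share of ion channels and synapses (2.33% to 15.7%) lies below those of transcription regulators (17.5% to 33.3%) and signalling genes (17.3% to 36.6%). The lists were chosen with earlier results of these data known, and 3 genes belong to more than 1 of them.

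**Figure D5:**
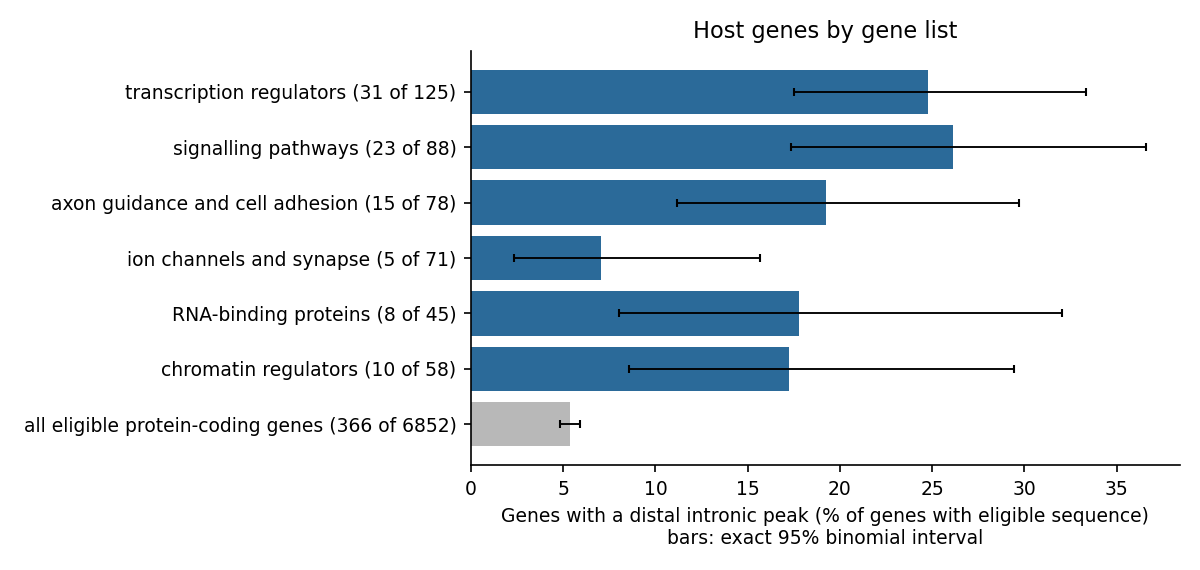
Share of genes with eligible intronic sequence that hold a distal intronic peak, by gene list (blue) and over all eligible protein-coding genes (grey); error bars are exact 95% binomial intervals, which cover counting error only. Shares run from 7.04% for ion channels and synapses to 26.1% for signalling pathways among the lists with a host, against 5.34% for all genes, whose eligible sequence is shorter (median 0.626 kb against 15.8 and 8.28 kb in these 2 lists).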

How the data were processed

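Anti-GFP ChIP-seq covered 2 biological replicates of NC2alpha-eGFP embryos. The authors' deposited notes describe peak lists per replicate and for both replicates together, each against a control alignment, and a list of peaks past their reproducibility threshold (IDR). Neither caller, aligner nor threshold is given in the sources used here. Peak signal is the authors' deposited value, unchanged. The −log10 q value and the summit offset (other) were read as deposited by the authors, the first without use in any result and the second to place summits. Read depth cannot be stated without reads. The lists on dm3 were not used here.

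Coordinates are on dm6, counted from 1. Genes (18164 on 6 chromosomes, 13945 protein-coding; 23581 TSS positions; transposable elements left out) came from Ensembl release 115 and sequence from the Release 6 reference of RefSeq. Eligible sequence is every base that the membership rule could have picked (47.3 Mb), and motif backgrounds tile all of it. A replicate value is that of the strongest peak of that replicate overlapping by at least 1 base. Outward matches read away from the summit on their strand. Binomial intervals are exact (Clopper-Pearson, 95%) and cover counting error only. Peaks of 1 list are not replicates of a condition, so no test was made. 1 of the 8 gene lists and some sequences are not reported here. The members, the 8 gene lists and the 16 motifs were chosen with earlier results of these data known; of 633 symbols 5 matched no gene and 7 matched through older symbols. Genes were named if they host one of the 25 strongest members or 3 or more members, if they hold the 3 strongest members of a list, if they lie nearest to the 1000 bp limit, or if their replicates were most unequal; the others, such as the hosts of the Wnt and Notch pathways, were chosen after their values were seen. The scripts were tested on simulated data. Computation used Python 3.11.15, numpy 2.4.6, pandas 2.3.3, scipy 1.17.1 and matplotlib 3.10.9.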

Additional observations from a re-analysis of the deposited data

How the results depend on the processing

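No paired analysis was possible because both libraries belong to 1 group. Over 7 results and 59 alternatives, the outward words aside, 45 values moved by less than their counting interval, the difference between replicates or, for the number of hosts, 1.5 times and the other 14 moved by more, for which the cause was not tested. With the strongest 1087 peaks, members were 20.9% of the list, in 187 host genes, and 19.8% of hosts had a peak at their own TSS. With a limit of 500 bp members were 29.9% of the list and 6.95% of pooled distal intronic peaks reached it; with 2000 bp these were 16.2% and 5.69%, and the ratio of medians was 0.928. GAGAG was in 13.1% of members within 50 bases of the summit (11.3% of tiled windows) and in 57.0% within 200 bases (37.99%), and GAGAGAG in 5.22%. Counting 200 or 1000 bp as at the TSS gave 20.2% and 35.5% of hosts. The share over all eligible genes was not counted again for these distances, the strongest 1087 peaks or a single replicate. Whether the excess in hosts held there can therefore not be said. With the list built from a single replicate, results ranged from 22.6% to 23.6% of the list, 0.948 to 0.955 for the ratio of medians, 357 to 383 hosts, 44.2% to 47.4% in first introns, 26.3% to 33.7% of hosts with a peak at their TSS, and 26.5% to 31.6% with GAGAG. The low GAGAG value came from replicate 2 alone. Joining summits within 1000 bp, added after the data were seen, left 366 hosts and 81.8% and 80.4% of TCAGTG and CCACTGT matches outward. Read depth, which limits the weakest peaks, cannot be stated.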
